A study of Mus musculus with 36 samples.

Results

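The windows described here surround 8 genes of early lineages or of the formative state: Otx2, Fgf5, Gata4, Gata6, Sox17, Foxa2, Pax6 and Sox1. Each window is a fixed stretch of 110 to 200 kb of the mouse genome (build mm9), and every ChIP-seq peak within it was taken, whatever its height. The 14 peak lists held 243 peaks in these windows, of 292990 in all (0.0829%), and all 243 lay wholly inside. Of these, 51 were peaks of the histone mark H3K4me3 and 192 were peaks of the transcription factors Nanog, Sox2 or Oct4 (Pou5f1). The windows are Otx2 at chr14:49200000-49400000, Fgf5 at chr5:98620000-98780000, Gata4 at chr14:63760000-63920000, Gata6 at chr18:11000000-11130000, Sox17 at chr1:4430000-4540000, Foxa2 at chr2:147810000-147930000, Pax6 at chr2:105450000-105600000 and Sox1 at chr8:12340000-12450000.

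The cells were KH2, an established mouse embryonic stem cell line, and the study followed them as they left serum medium for 2i, a serum-free medium with inhibitors of a pair of kinases. KH2 cells were sampled in serum with LIF, after 24 h in 2i with LIF, and after 3 passages in 2i with LIF. H3K4me3, Nanog (antibody lot 1) and Sox2 were mapped in all 3 conditions, and Oct4 in serum and at 24 h. The labels call the molecule of the Sox2 libraries RNA, but they name an antibody for them and the files hold peaks, so they were taken as ChIP-seq, a doubt that bears on every Sox2 value. A second lot of the Nanog antibody was used on serum cells labelled GFP-high, on KH2 cells at 24 h, and on embryonic stem cells with a triple knockout of DNA methyltransferases (TKO) at 24 h. Nothing in the labels says which gene carried the GFP or whether the TKO line was 1 clone. The maintenance cultures grew on a layer of mouse embryonic fibroblasts, and the sources used here do not say whether these were removed before fixation. The identity of the cells was not checked against marker genes, because no windows were placed at other genes.

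Naive embryonic stem cells keep lineage genes silent or low, and many of these genes carry H3K4me3 together with the repressive mark H3K27me3, a state called bivalent. H3K4me3 collects at CpG-rich transcription starts and tends to widen where a gene is active. Otx2 and Fgf5 come on as cells pass into the formative state, the stage of the early post-implantation epiblast. Gata4, Gata6 and Sox17 are transcription factors of primitive endoderm, Foxa2 of definitive endoderm and the midline, and Pax6 and Sox1 of early neural tissue. Nanog, Sox2 and Oct4 form the core of the pluripotency network and often share binding sites, some of them near genes they hold in check.

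The 250 bases before each transcription start were taken from RefSeq (GRCm38.p6), where 5 of the 8 genes had an entry, with 11 starts in all. Those before the first listed start of each gene are printed here, and no H3K4me3 peak was placed on them. The CG dinucleotides are in capitals, and the sequences run 5′ to 3′ on the gene's own strand, which is the plus strand for Fgf5, Pax6 and Sox1 and the minus strand for Otx2 and Foxa2.
Otx2: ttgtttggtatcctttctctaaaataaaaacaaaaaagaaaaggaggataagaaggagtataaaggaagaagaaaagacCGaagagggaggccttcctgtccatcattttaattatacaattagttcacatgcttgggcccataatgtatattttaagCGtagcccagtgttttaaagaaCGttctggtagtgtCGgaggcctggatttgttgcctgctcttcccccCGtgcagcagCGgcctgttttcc
Fgf5: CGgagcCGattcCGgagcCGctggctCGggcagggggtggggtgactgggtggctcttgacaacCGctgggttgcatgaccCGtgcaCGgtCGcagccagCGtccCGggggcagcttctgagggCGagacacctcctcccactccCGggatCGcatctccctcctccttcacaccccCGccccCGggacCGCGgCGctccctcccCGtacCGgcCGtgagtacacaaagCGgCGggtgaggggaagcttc
Foxa2: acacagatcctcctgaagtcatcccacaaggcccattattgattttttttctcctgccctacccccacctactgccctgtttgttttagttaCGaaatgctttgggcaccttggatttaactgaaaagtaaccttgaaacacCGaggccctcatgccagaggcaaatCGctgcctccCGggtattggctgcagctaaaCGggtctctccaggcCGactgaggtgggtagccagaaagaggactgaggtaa
Pax6: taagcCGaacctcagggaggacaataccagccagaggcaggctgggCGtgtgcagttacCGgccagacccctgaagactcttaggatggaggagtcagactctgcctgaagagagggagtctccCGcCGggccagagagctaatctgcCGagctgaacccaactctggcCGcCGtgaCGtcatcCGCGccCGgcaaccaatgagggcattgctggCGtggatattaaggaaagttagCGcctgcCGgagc
Sox1: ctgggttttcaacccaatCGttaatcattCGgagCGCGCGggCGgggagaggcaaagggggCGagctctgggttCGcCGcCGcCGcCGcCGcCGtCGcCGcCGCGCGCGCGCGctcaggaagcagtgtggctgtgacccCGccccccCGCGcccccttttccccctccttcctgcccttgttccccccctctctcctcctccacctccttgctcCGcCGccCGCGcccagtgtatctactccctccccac
Sox1 had the densest CG content, with 29 CG dinucleotides, and Fgf5 followed with 24. Pax6 held 15 at each of its 2 starts. The first starts of Otx2 and Foxa2 held 6 each, equal to the median of 6 over 32851 promoters, and their later starts reached 14 and 20. The stretches before the starts of Sox1 and Fgf5 were thus richer in CG than 93.2% and 88.0% of promoters. The octamer ATGCAAAT was in none of the 11 stretches on either strand (1.60% of all promoters held it), and neither was the Sox-type word ACAATG (10.7%). The word GGATTA, of the kind that Otx-type homeodomains bind, stood before 1 start, the third of Otx2 (6.25%). Since these sequences belong to another build than the peaks, no peak was assigned to a promoter, exon or intron.

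Each condition had 1 pooled peak list, and for 6 of the 14 lists the labels hold 1 sample, so no spread between replicates was known and no test was made. The lists held 5011 to 41755 peaks on the main chromosomes. Their lowest −log10 q ran from 3.69 (Sox2 at 24 h) to 86.4 (Oct4 in serum), so a missing peak in one list does not mean the same as in another. Fold enrichment is the authors' own value for a peak over the control, and it is used here to place a peak within its list. A place within lists of different length shows no change in itself. In bulk cultures, a peak carried by fewer cells and a weaker peak in each cell cannot be told apart.

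H3K4me3 covered 27819 bp of the 8 windows in serum, 12909 bp at 24 h of 2i and 21722 bp at 3 passages. The length at 24 h was 0.464 of that in serum, against 0.700 for the whole lists, and the length at 3 passages was 0.781 of it, against 0.844. H3K4me3 peaks in the windows were narrower and weaker than those of the whole lists: the median width was 1328 bp in serum, 743 bp at 24 h and 1058 bp at 3 passages, where the whole lists had 1505, 1121 and 1242 bp. Their median fold enrichment was 6.32 in serum and 5.26 at 24 h, against 12.6 and 8.16 for the whole lists. The order of serum over 3 passages depended on the lists' length and threshold. When each list was shortened to the 17438 peaks of the 24 h list, keeping the highest −log10 q, the covered lengths were 19642, 12909 and 20816 bp. The shortest cover was at 24 h under each of these choices.

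The total hid differences between the windows. In the Otx2 window the covered length was 5761 bp in serum, 2175 bp at 24 h and 9135 bp at 3 passages. In the other 7 windows together it was 22058, 10734 and 12587 bp. The other 7 were not alike. With the lists as deposited, Otx2 and Sox1 were the only windows with more covered length at 3 passages than in serum. The serum peak of Gata6 (−log10 q 12.8) and serum peaks of Gata4 (11.2 and 13.0) lay under 14.3, the lowest of the 3 passages list. The order of serum and 3 passages in these windows thus depended on the threshold. Fgf5, Foxa2 and Pax6 had H3K4me3 peaks in the first 2 conditions and none at 3 passages. Gata6 had none at 24 h.

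**Figure D1:**
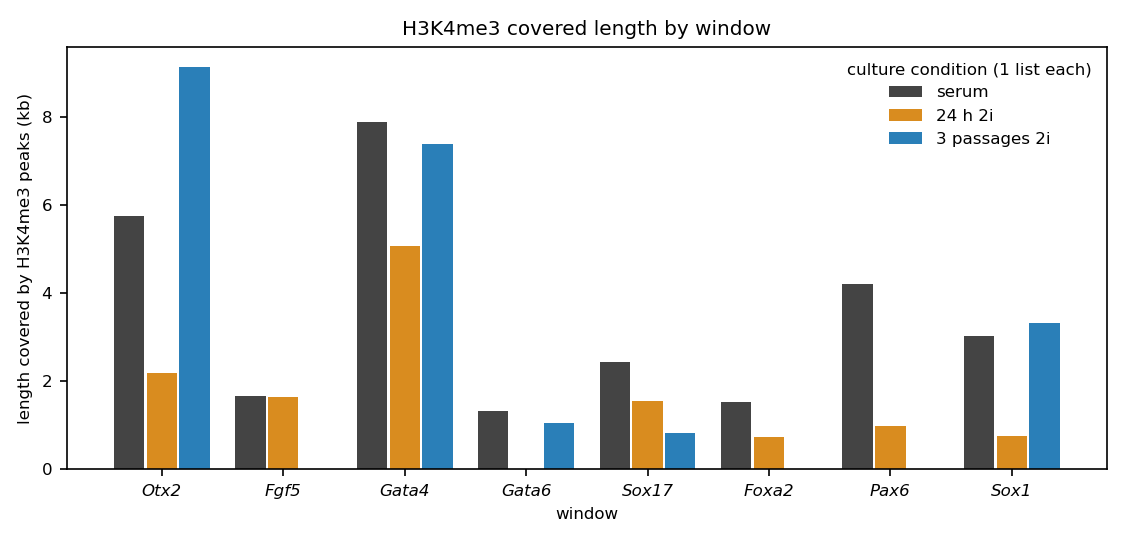
Length covered by H3K4me3 peaks (kb, vertical axis) in each of the 8 windows (horizontal axis), with 1 bar for each culture condition, each from 1 pooled list and therefore without error bars. Otx2 has its tallest bar at 3 passages (9135 bp), while Fgf5, Foxa2 and Pax6 have no bar there.

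Merged over the 3 lists, the H3K4me3 peaks made 28 regions. Only 7 of them (25.0%) were called in all 3 conditions, a class that held 57.4% of all H3K4me3 regions of the genome. The class called in serum and at 24 h but not at 3 passages held 4 regions (14.3%), against 3.73% genome-wide, and all 4 lay in the Fgf5, Foxa2 and Pax6 windows. A further 7 regions (25.0%, against 11.7%) were called at 3 passages alone, 4 of them in the Otx2 window. The remaining regions were 6 in serum alone (against 16.1% genome-wide), 3 in serum and at 3 passages (against 5.73%) and 1 at 24 h alone (against 4.07%). None was called in both 2i lists but not in serum (1.32% genome-wide). The genome-wide shares come from stronger peaks than those of the windows and were not matched for fold.

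Pair by pair, 9 of the 21 regions of serum and 24 h were called only in serum (42.9%, against 24.7% genome-wide) and 1 only at 24 h (4.76%, against 6.27%). Between serum and 3 passages, 10 of 27 regions were called only in serum (37.0%, against 20.6%) and 7 only at 3 passages (25.9%, against 13.6%). Between 24 h and 3 passages, 6 of 23 were called only at 24 h (26.1%, against 9.99%) and 10 only at 3 passages (43.5%, against 21.0%). Shared regions were thus a smaller part of the windows than of the genome in each of these pairs. Window peaks were weaker than those of the whole lists, with a median fold of 6.32 against 12.6 in serum. The genome-wide shares were not matched for fold. The 9 regions called only in serum against 24 h could not be checked against the lowest −log10 q of the 24 h list, 4.91. Every peak of the serum list lay above that value. Of the 10 called only in serum against 3 passages, 5 lay at or below 14.3, the lowest value of the 3 passages list. The same held for 4 of the 6 called only at 24 h against 3 passages. The 1 region called only at 24 h against serum lay below the lowest value of the serum list, 10.5.

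**Figure D2:**
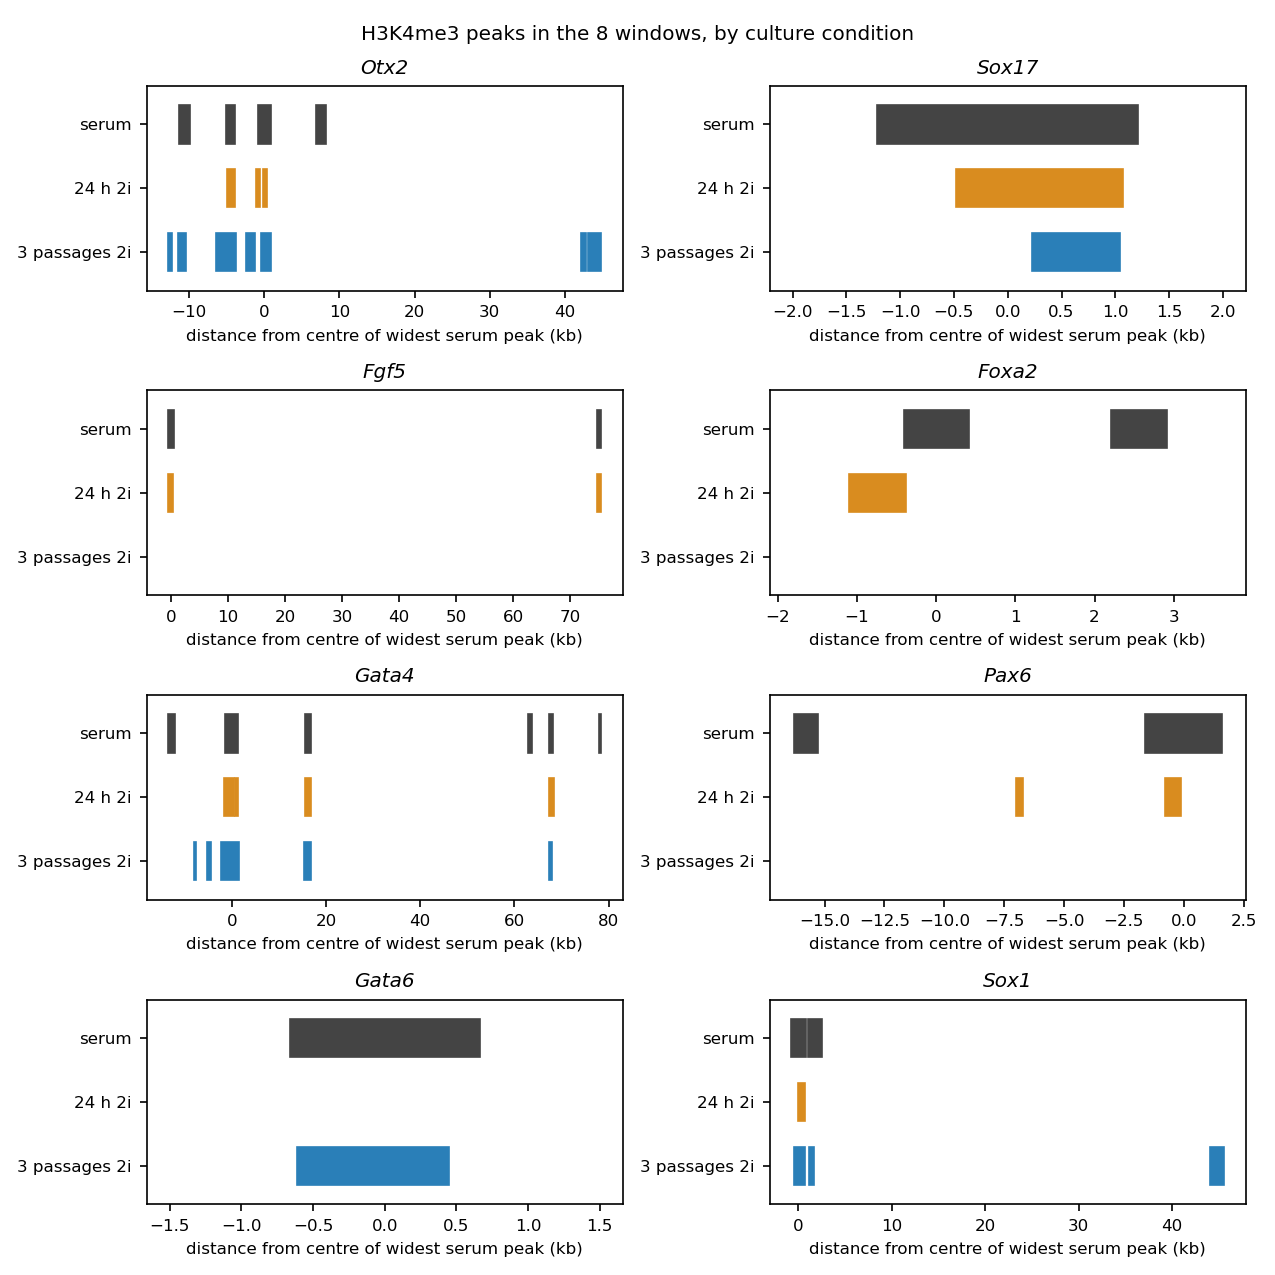
Position of every H3K4me3 peak in the 8 windows, as distance from the centre of the window's widest serum peak (kb, horizontal axis), with 1 row for each culture condition and bars drawn to scale within a panel. The rows for 3 passages are empty in the Fgf5, Foxa2 and Pax6 panels, and the Otx2 row for 3 passages holds 7 peaks, 2 of them far to the right of every serum peak.

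Otx2, a homeodomain factor that directs enhancer choice in the formative state, had the strongest H3K4me3 peak of the 8 windows. The region chr14:49279930-49282497 was 1190 bp wide in serum with a fold enrichment of 11.7, 1113 bp at 24 h with 4.64, and 2568 bp at 3 passages with 31.3. Within their own lists these folds exceeded 46.8%, 15.2% and 95.9% of the peaks. This region thus stood in the middle of the serum list, low in the 24 h list and near the top of the 3 passages list. Its neighbour chr14:49285265-49287186 was 1732 bp in serum, 1062 bp in 2 peaks at 24 h and 1375 bp at 3 passages, with highest folds of 8.57, 5.13 and 8.30. The region chr14:49274867-49276409 was 1506 bp in serum and 959 bp at 3 passages, and was not called at 24 h. A serum peak of 1333 bp at chr14:49293138-49294470 was in no 2i list.

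A group of 4 Otx2 regions was called at 3 passages only. The widest was chr14:49329366-49331172, 1807 bp with a fold of 5.22, and next to it lay chr14:49328479-49329102, 624 bp with 6.45. Closer to the main region were chr14:49283819-49285132, 1314 bp with 7.76, and chr14:49273527-49274014, 488 bp with 5.40. All 4 had a −log10 q between 17.0 and 36.9. Every peak of the 3 passages list reached 14.3, above the lowest value of either other list, so that limit does not set these 4 apart. The number of H3K4me3 peaks in the Otx2 window was 4, 3 and 7. As many or more were found in 13.7%, 18.7% and 4.25% of all 200 kb tiles of the genome.

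Fgf5 encodes a secreted growth factor and is a common marker of the formative epiblast. It had 2 H3K4me3 regions, neither over 1000 bp. The region chr5:98682807-98683808 was 960 bp in serum with a fold of 7.73 and 902 bp at 24 h with 6.72. The region chr5:98758031-98758834 was 702 bp with 6.27 and 731 bp with 6.68. Width and fold were close between serum and 24 h in both, and neither region was called at 3 passages. Their serum −log10 q values of 22.1 and 26.0 lay above the lowest of the 3 passages list, 14.3.

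Pax6, a paired-box factor of eye and neural development, had the widest serum peak of the 8 windows. The region chr2:105514480-105517686 was 3207 bp wide in serum, wider than 92.8% of that list, with a modest fold of 6.37. At 24 h it held a peak of 678 bp with a fold of 5.38, wider than 26.0% of that list. A second serum peak, chr2:105499784-105500787, was 1004 bp with a fold of 5.51 and was in neither 2i list. A peak of 309 bp with a fold of 4.25 was called in the Pax6 window at 24 h alone. The broad serum domain was thus represented by a short peak at 24 h and by none at 3 passages, and its serum −log10 q of 21.2 lay above the 3 passages limit of 14.3.

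Foxa2, a forkhead factor of endoderm and midline, had weak and narrow H3K4me3 peaks. In serum they were 817 bp with a fold of 5.95 and 701 bp with 4.69. At 24 h there was 1 peak of 727 bp with 8.56. The serum peaks' −log10 q values were 12.1 and 10.6, under the 14.3 that every peak of the 3 passages list reached, unlike those of Fgf5 and of the broad Pax6 domain. The 24 h peak of Foxa2 had 17.9, above that limit. The −log10 q of different lists need not be on one scale.

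Sox17, an HMG-box factor of primitive and definitive endoderm, had 1 region, chr1:4481572-4483998, in every condition. It was 2427 bp wide in serum, 1554 bp at 24 h and 823 bp at 3 passages, with folds of 10.9, 6.26 and 8.44. It was wider than 81.0%, 68.2% and 29.5% of the peaks of those lists, the shortest of the 3 being that of 3 passages. The region of Gata6, a zinc finger factor that starts the primitive endoderm programme, was chr18:11051871-11053194. It was 1324 bp in serum with a fold of 5.25 and 1058 bp at 3 passages with 5.02, higher than 8.68% and 9.55% of those lists, and was not called at 24 h.

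Gata4, a zinc finger factor that acts with Gata6, had 15 H3K4me3 peaks over the 3 lists, with 6 in the serum list, 4 in that of 24 h and 5 in that of 3 passages. This was the highest count of the 8 windows in serum and at 24 h, while at 3 passages Otx2 had more, with 7. As many or more were found in 4.20%, 8.86% and 6.70% of all 160 kb tiles. The nearest protein-coding neighbours of Gata4 in GRCm38.p6 are Neil2 and Blk, and no peak of the window was assigned to Gata4 itself. The strongest region, chr14:63794088-63797978, was 2839 bp in serum with a fold of 11.3, 2774 bp in 2 peaks at 24 h with 15.6, and 3891 bp at 3 passages with 18.5. It was the widest H3K4me3 peak of any window and list, wider than 97.8% of the 3 passages list.

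The other Gata4 regions were lower. The region chr14:63811679-63813286 was 1428, 1287 and 1608 bp wide in serum, at 24 h and at 3 passages, with folds of 10.9, 3.61 and 6.09. The region chr14:63863620-63864738 was 893, 1017 and 638 bp wide, with folds of 4.28, 4.04 and 4.92. A 1333 bp serum peak at chr14:63782896-63784228, with a fold of 7.54, was in no 2i list. A further 4 regions of 347 to 906 bp were each in 1 list, 2 in serum and 2 at 3 passages. Without the Gata4 window the covered length of the remaining windows was 19922, 7831 and 14332 bp, in the same order.

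Sox1, an HMG-box factor and early marker of neural plate, had 3 H3K4me3 regions. The region chr8:12394701-12396252 was 1552 bp in serum with a fold of 14.1, 755 bp at 24 h with 5.05 and 1194 bp at 3 passages with 9.46. Its neighbour chr8:12396542-12398008 was 1467 bp in serum and 535 bp at 3 passages, with folds of 6.46 and 6.21, and was not called at 24 h. A peak of 1587 bp at chr8:12439492-12441078, with a fold of 5.58, was called at 3 passages only. The serum and 3 passages lists thus both held more Sox1 peaks than the 24 h list, which held 1.

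The 192 factor peaks were spread very unevenly over the windows. The Otx2 window held 101 of them (52.6%), Pax6 31, Foxa2 20, Fgf5 15, Sox1 10, Sox17 6, Gata6 5 and Gata4 4. In the Otx2 window the 6 Nanog lists had 9 to 15 peaks each, a number reached by 0.0757% to 3.31% of all 200 kb tiles. Its Sox2 lists had 5 to 7 peaks (0.545% to 0.916% of tiles) and its Oct4 lists 3 and 5 (1.85% and 0.462%). In the Pax6 window the 2 and 3 Oct4 peaks were reached by 4.65% and 2.47% of 150 kb tiles. No Oct4 peak lay in the Gata4, Gata6, Sox17, Foxa2 or Sox1 windows, and no Sox2 peak in the Gata6, Sox17 or Sox1 windows. Having none was the usual case, since 17.2% to 33.7% of tiles of those lengths held any Oct4 peak and 26.0% to 45.8% any Sox2 peak, depending on the list.

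**Figure D3:**
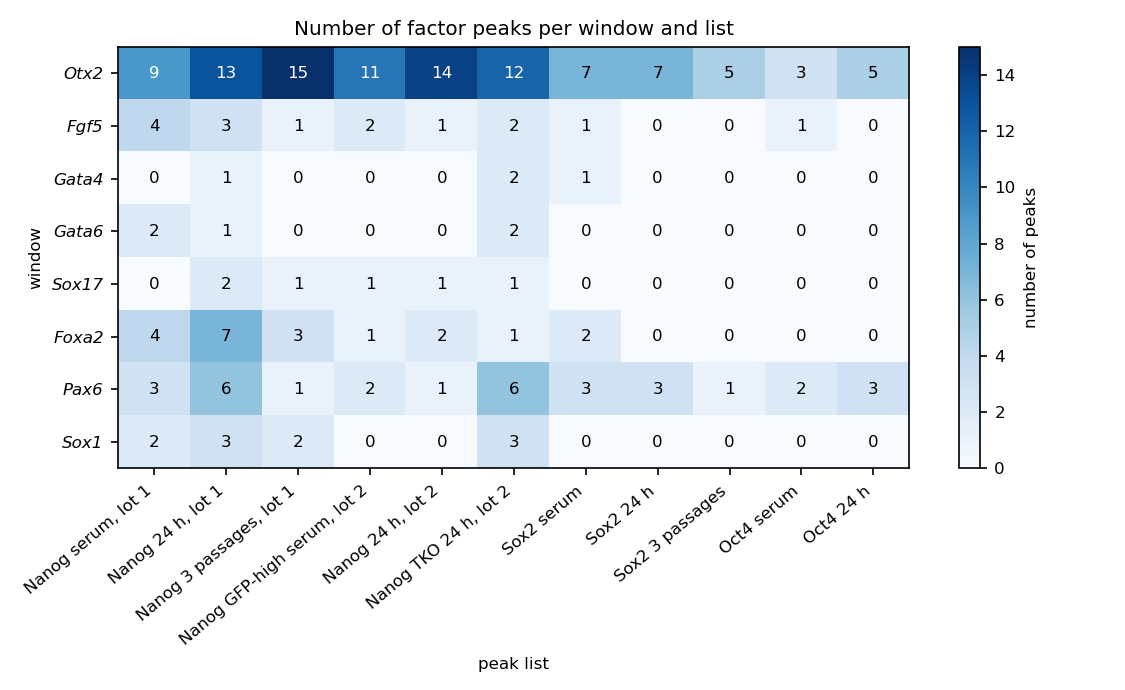
Number of peaks (printed in each cell, darker for more) in each window (rows) and each of the 11 factor lists (columns). The Otx2 row holds the highest count in every column, from 3 to 15 peaks, and Sox2 and Oct4 peaks lie mostly in the Otx2 and Pax6 rows.

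The Nanog lists of lot 1 had 9 peaks in the Otx2 window in serum, 13 at 24 h and 15 at 3 passages. In the other 7 windows they had 15, 23 and 8. The Sox2 lists had 7, 7 and 5 peaks in the Otx2 window and 7, 3 and 1 in the others. The whole lists differed in length too, with 25534, 41755 and 33185 Nanog peaks and 13128, 15310 and 8749 Sox2 peaks, so these counts alone show no difference between conditions. For Nanog of lot 1, the Otx2 window held 9 of 24 peaks of the 8 windows in serum, 13 of 36 at 24 h and 15 of 23 at 3 passages. For Sox2 it held 7 of 14, 7 of 10 and 5 of 6. With lot 2 it held 11 of 17 Nanog peaks in GFP-high serum cells, 14 of 19 in KH2 and 12 of 29 in TKO cells at 24 h. A large share in this window was thus not particular to 3 passages. Oct4 had 3 and 5 peaks in the Otx2 window in serum and at 24 h, and 3 and 3 in the others.

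Merged over the 11 lists, the factor peaks made 51 regions, of 71038 in the genome. Nanog alone was called in 34 of them (66.7%, against 69.4% of all regions), and no region held only Sox2 (3.32% genome-wide) or only Oct4 (0.662%). Of the 51 regions, 20 were in a single list (39.2%, against 41.0%) and 2 in all 11 lists (3.92%, against 3.11%). All 3 factors were called in some list at 7 regions (13.7%, against 9.60%), 4 in the Otx2 window, 2 in Pax6 and 1 in Fgf5. All 6 Nanog lists had a peak at 10 regions (19.6%, against 13.1%), 8 of them in the Otx2 window. H3K4me3 of any condition overlapped 7 of the 51 regions (13.7%, against 12.3%). Most of these shares lay near the genome-wide ones.

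Both regions called in all 11 lists lay in the Otx2 window. At region 16, chr14:49372890-49374935, the Nanog folds of lot 1 were 56.4 in serum, 50.8 at 24 h and 37.5 at 3 passages, and those of lot 2 were 39.7 in GFP-high cells, 27.4 in KH2 and 60.1 in TKO cells. The Sox2 folds there were 27.9, 11.4 and 12.4, and the Oct4 folds 32.9 in serum and 46.3 at 24 h. Every one of these peaks had a higher fold than at least 85.4% of its list. The 11 summits lay within 169 bp of each other, and the nearest H3K4me3 region was 41718 bp away.

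At Otx2 region 6, chr14:49282260-49285133, the Nanog folds were 30.5, 35.5 and 31.5 with lot 1 and 48.8, 53.2 and 33.9 with lot 2. Its Sox2 folds were 15.9, 15.2 and 10.8, and its Oct4 folds 12.8 and 18.9. Nanog was high in its lists here, above 88.2% of peaks or more, whereas Oct4 stood above 16.6% and 43.5% of its lists. Region 6 overlapped the H3K4me3 region chr14:49279930-49282497, the one with the fold of 31.3 at 3 passages. Its 11 summits spread over 93 bp.

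Otx2 region 3, chr14:49213632-49214684, was called in 10 lists, all but Oct4 in serum. The Nanog folds of lot 1 were 16.9 in serum, 48.4 at 24 h and 43.3 at 3 passages, which exceeded 68.5%, 97.5% and 98.1% of those lists. The Sox2 folds were 12.4, 21.8 and 24.9, above 66.7%, 97.3% and 98.8% of the lists. Oct4 had a fold of 27.3 at 24 h. With lot 2 the Nanog folds were 38.5 in GFP-high serum cells, 46.9 at 24 h and 73.1 in TKO cells, above 91.4%, 96.3% and 98.4% of the lists. Region 3 thus held a higher place in each 2i list than in the serum list of the same antibody, and it lay 58843 bp from the nearest H3K4me3 region.

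Otx2 region 8, chr14:49320231-49321477, was also called in 10 lists, all but TKO Nanog. Its Nanog folds were 24.3, 23.8 and 17.2 with lot 1, and 25.5 and 11.5 with lot 2 in GFP-high and 24 h cells. The Sox2 folds were 16.9, 10.4 and 7.37 and the Oct4 folds 18.3 and 15.9. Otx2 region 15, chr14:49353570-49354858, was in neither the serum Nanog list of lot 1 nor the serum Sox2 list. At 24 h it had a Nanog fold of 15.3 and a Sox2 fold of 6.45. With lot 2, however, it was called in GFP-high serum cells with a fold of 28.5, so its absence from serum did not hold across both serum lists.

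Fgf5 region 1, chr5:98684418-98685428, stood out among the factor regions of its window. The Nanog folds of lot 1 were 86.8 in serum, 47.7 at 24 h and 27.1 at 3 passages, above 99.8%, 97.4% and 91.9% of the lists. With lot 2 the folds were 36.6 in GFP-high serum cells, 14.7 at 24 h and 7.75 in TKO cells, above 90.6%, 66.8% and 15.2%. In both lots the serum list gave it the highest place. Sox2 (fold 16.8) and Oct4 (15.5) were called there in serum and in no 2i list. The 8 summits lay within 74 bp, and the region began 610 bp from the H3K4me3 region chr5:98682807-98683808, which was not called at 3 passages.

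The remaining 5 Fgf5 regions held Nanog alone. Region 3, chr5:98739051-98739872, had folds of 6.70 in serum and 6.25 at 24 h with lot 1. Region 4, chr5:98741995-98742657, had 7.71 at 24 h and 8.11 in GFP-high cells. Regions 2 and 5 were in the serum list of lot 1 alone, with folds of 9.51 and 12.5. Region 6, chr5:98771023-98772075, was in the TKO list alone, with a fold of 10.2, which was higher than that of region 1 in the same list. At 3 passages region 1 was the single factor region of the Fgf5 window.

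The Pax6 window had 2 regions with all 3 factors. At region 5, chr2:105516923-105518371, the Nanog folds were 29.7, 34.0 and 14.6 with lot 1 and 11.5, 11.4 and 16.2 with lot 2. Sox2 had 10.3 in serum and 4.30 at 24 h, and Oct4 13.1 and 14.7. This region overlapped the end of the broad serum H3K4me3 peak and was in every factor list except Sox2 at 3 passages. At region 7, chr2:105530538-105531961, the Nanog folds of lot 1 were 25.3 in serum and 8.17 at 24 h, above 83.2% and 30.2% of the lists. With lot 2 they were 5.85 in GFP-high serum cells and 10.5 in TKO cells at 24 h, above 4.01% and 48.4%. The lot 2 list of KH2 cells at 24 h did not call region 7. A higher place in 2i than in serum was thus seen in TKO cells only. The Sox2 folds were 12.1 in serum and 4.04 at 24 h, and the Oct4 folds 19.4 and 10.6. No list of 3 passages called region 7. Its summits were spread over 238 bp.

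Other Pax6 regions had fewer factors. Region 2, chr2:105456404-105457067, had Sox2 in all 3 conditions, with folds of 17.0, 6.45 and 8.21, and Nanog at 24 h (8.99 with lot 1) and in TKO cells (6.45). Region 1, chr2:105451106-105452114, was called for Nanog (9.54) and Oct4 (10.5) at 24 h and in no other list. Its Oct4 fold exceeded 3.32% of that list. The −log10 q of this Oct4 peak was 88.9, close to the lowest of the 24 h and serum Oct4 lists, 85.9 and 86.4.

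In the Foxa2 window Nanog and Sox2 met at 2 regions, and Sox2 was called there in serum only. At region 5, chr2:147866201-147867034, the Nanog folds of lot 1 were 44.1 in serum, 25.1 at 24 h and 6.23 at 3 passages, above 95.1%, 84.7% and 22.0% of the lists, and the serum Sox2 fold was 15.9. With lot 2 it was called in GFP-high serum cells (15.8) and in neither KH2 nor TKO cells at 24 h. Serum lists thus held the higher places at this region, as at Fgf5 region 1. Region 2, chr2:147854775-147855431, had Nanog folds from 5.50 to 10.5 in 5 lists, and region 3, chr2:147862391-147863041, from 6.88 to 14.4 in 4 lists.

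The endoderm windows of Sox17, Gata6 and Gata4 and the Sox1 window held few factor peaks, most of them Nanog. Sox17 region 1, chr1:4437857-4438501, was called in 5 Nanog lists with folds from 7.04 to 10.1, and the missing one was serum of lot 1. Sox17 region 2, chr1:4534170-4534862, had a Nanog fold of 7.60 at 24 h alone. Gata6 region 2, chr18:11037552-11038116, had Nanog folds of 8.15 in serum and 8.23 at 24 h, and its regions 3, chr18:11112060-11112453, and 4, chr18:11123657-11124146, were each in 1 list. None of the factor regions of Sox17 and Gata6 met a H3K4me3 peak.

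Gata4 region 2, chr14:63796613-63797227, lay inside the window's strongest H3K4me3 region, with a lot 1 Nanog fold of 8.58 at 24 h and a Sox2 fold of 5.05 in serum. Gata4 regions 1, chr14:63790074-63790803, and 3, chr14:63871239-63871525, were called in TKO cells only, with folds of 9.88 and 8.34. Sox1 region 5, chr8:12430850-12432369, had Nanog folds of 9.10, 8.16 and 4.85 with lot 1 and 15.7 in TKO cells. Sox1 region 2, chr8:12394736-12396254, met H3K4me3 of all 3 conditions and had a lot 1 Nanog fold of 7.01 at 24 h and was also called in TKO cells. Sox1 region 3, chr8:12400702-12401205, had 9.91 at 24 h. All of these folds were lower than those of Otx2 region 16 in the same lists.

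**Figure D4:**
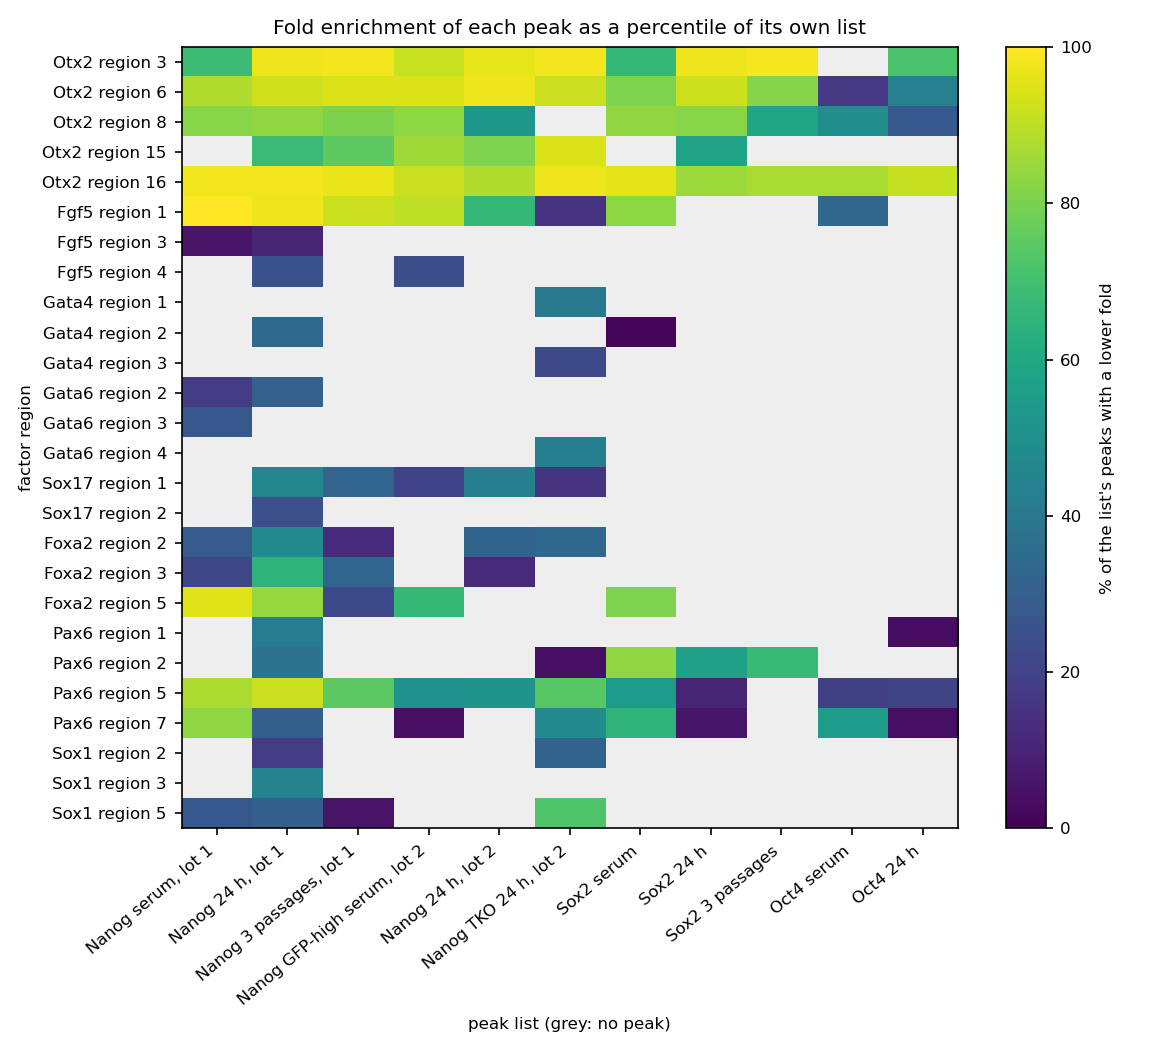
Fold enrichment of each peak as the percentage of its own list with a lower fold (colour, 0 to 100), for the named factor regions (rows) in the 11 factor lists (columns), with grey where no peak was called. Otx2 regions 6 and 16 stand above 88.1% or more of the peaks in each of the 6 Nanog lists, whereas region 3 stands above 68.5% in serum with lot 1. A place in lists of different length shows no change in itself.

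Between serum and 24 h of 2i, the Nanog lists of lot 1 gave 40 regions in the windows. Of these, 20 were called in both, 4 only in serum, against 8.95% of all regions, and 16 only at 24 h, against 44.5%. The shares were near those of the genome. When the 24 h list was shortened to the 25534 peaks of the serum list, 7 regions were only in serum and 7 only at 24 h, so the larger number at 24 h was not seen at equal length. No region of the Otx2, Foxa2 or Pax6 windows was called only in serum, and the 4 that were lay in Fgf5 (2), Gata6 and Sox1. With lot 2, GFP-high serum cells and KH2 cells at 24 h shared 13 of 23 regions, with 4 only in GFP-high (17.4%, against 33.2%) and 6 only at 24 h (26.1%, against 19.2%). Between serum and 3 passages with lot 1, 15 of 31 regions were shared, 9 were only in serum (29.0%, against 16.9%) and 7 only at 3 passages (22.6%, against 36.4%). The 9 were all outside the Otx2 window, and 5 of the 7 were inside it.

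KH2 and TKO cells at 24 h, both with lot 2, shared 14 of 34 Nanog regions. In KH2 alone there were 5 (14.7%, against 15.2%) and in TKO alone 15 (44.1%, against 51.8%). These shares were close to the genome's, and the TKO list was the longer, with 38518 peaks against 21893. In the Otx2 window KH2 had 14 peaks and TKO 12, while in the other 7 windows KH2 had 5 and TKO 17. Of the 51 factor regions, 8 were called in TKO cells alone (15.7%, against 19.8%).

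Sox2 had 15 regions between serum and 24 h. Of these 9 were shared, 5 were only in serum (33.3%, against 22.7%) and 1 only at 24 h (6.67%, against 33.5%). The 5 serum regions were 1 each in Otx2, Fgf5 and Gata4 and 2 in Foxa2. Between serum and 3 passages, 6 of 14 were shared and 8 were only in serum (57.1%, against 42.6%). None was only at 3 passages (13.8% genome-wide). The single Sox2 region at 24 h alone was Otx2 region 15, and its −log10 q lay below 17.3, the lowest of the serum Sox2 list. The 5 regions only in serum could not be checked in this way, since every serum peak lay above the lowest value of the 24 h list, 3.69. When peaks of the 24 h list below that serum limit were left out, 4 regions were shared, 10 were only in serum and 0 only at 24 h.

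Oct4 had 9 regions, of which 5 were in both lists, 1 only in serum (11.1%, against 11.1%) and 3 only at 24 h (33.3%, against 43.1%). With lists of equal length, 2 were only in serum and 1 only at 24 h. The serum region was Fgf5 region 1, and those at 24 h were Otx2 regions 3 and 9 and Pax6 region 1. Nanog of lot 1, Sox2 and Oct4 were called together at 6 of 26 regions in serum (23.1%, against 12.9%) and at 6 of 36 at 24 h (16.7%, against 13.1%). The Otx2 window held 3 of these in serum and 4 at 24 h, Pax6 2 and 2, and Fgf5 1 and 0. Of 40 regions of the 3 factors in both conditions, 1 was called for 2 or more factors only in serum, Fgf5 region 1 (against 1.64% genome-wide), and 2 only at 24 h, Otx2 region 15 and Pax6 region 1 (against 6.17%). For Otx2 region 15 this count includes the Sox2 peak under the limit of the serum list. For Pax6 region 1 it includes an Oct4 peak (−log10 q 88.9) little above the limit of the serum Oct4 list, 86.4.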

How the data were processed

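ChIP-seq peak lists of Nanog, Sox2, Oct4 and H3K4me3 were used, 14 in all, from 22 of the 36 samples in the labels. The aligners BWA 0.5.7 and Bowtie 0.12.7, the caller MACS2 and the build mm9 are named in the submitters' processing notes, and the role of each aligner was not given in the sources used here. Peaks were called on pooled replicates against a control, per the peak names in the deposited files, and no source used here gives the rule by which peaks were selected. The authors deposited for each peak a fold enrichment (a ratio over the control), a −log10 q and the offset of the summit. With no counts in the lists, read depth is unknown.

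The autosomes, X and Y were kept. Peaks overlapping by 1 bp or more across the lists under comparison were merged into regions, each taken as called in every list with a peak in it. Each count stands beside the share of all regions in the same class. Windows were also set beside all non-overlapping tiles of the same length. Positions are mm9, counted from 1. Python 3.11.15 with pandas 2.3.3, numpy 2.4.6 and matplotlib 3.10.9 was used, and merging and overlap were tested on simulated data. Named were all H3K4me3 peaks over 1000 bp, and of the factor regions up to 3 per window called in the most lists (ties by highest fold), those with all 3 factors and those called in only one of serum and 24 h for 2 or more factors. Otx2 region 9, Fgf5 regions 2, 5 and 6 and narrower H3K4me3 peaks were named after their values were seen. The windows and lists were chosen with earlier results of these data known. Values were recomputed with lists of equal length, a minimum −log10 q of 10 and windows widened by 20 kb. Further alternatives were joining of peaks up to 1000 bp apart, an overlap of 50% (factor regions only) and the other antibody lot (Nanog only). A common lowest −log10 q, and leaving out the Otx2 or the Gata4 window, were added after the data were seen.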

Additional observations from a re-analysis of the deposited data

How the results depend on the processing

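The lists carry no replicates, so these values describe the lists at hand. No paired analysis was possible because each list pools its replicates and no value per replicate number was used, and for the same reason no replicate could be left out. For H3K4me3 the covered length of the 8 windows in serum, at 24 h and at 3 passages was 27819, 12909 and 21722 bp. It was 19642, 12909 and 20816 bp with lists of equal length, and 19642, 5786 and 21722 bp with lists limited to the largest of their lowest −log10 q, so serum and 3 passages changed order under both. A minimum −log10 q of 10 gave 7366 bp at 24 h. It could not shorten the other 2 lists, which start at 10.5 in serum and 14.3 at 3 passages, so it was no check of the order. Windows widened by 20 kb gave 32105, 17015 and 25569 bp, and joining over 1000 bp gave 28108, 13391 and 23961 bp. Without the Gata4 window the lengths were 19922, 7831 and 14332 bp, and without the Otx2 window 22058, 10734 and 12587 bp. The length was shortest at 24 h under each of these choices.

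For Nanog of lot 1 (20 shared regions, 4 of serum alone, 16 of 24 h alone), lists of equal length gave 7 only in serum and 7 only at 24 h, so the excess at 24 h was not seen at equal length. Lot 2 gave 13 in both and 6 only at 24 h, and 11 were in both without the Otx2 window. For Sox2 (9 shared, 5 of serum alone, 1 of 24 h alone), a common lowest −log10 q gave 4 shared, 10 of serum alone and 0 of 24 h alone. Without the Otx2 window there were 3 in both and 0 only at 24 h, and wider windows gave 2 only at 24 h. For Oct4 (5 shared, 1 of serum alone, 3 of 24 h alone), equal length gave 2 only in serum and 1 only at 24 h, and without the Otx2 window there were 2 in both and 1 only at 24 h. The common limit and leaving out a window were chosen after seeing the data. The other alternatives kept each count within 1.5 times.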
